A study of Mus musculus with 5 samples.

Results

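Semaphorins, plexins and neuropilins were measured in single cells of the newborn mouse hippocampus. The genes were taken by symbol alone, as every feature named as a semaphorin of classes 3 to 7, a plexin of classes A to D or a neuropilin. No measured value entered this rule, but the set was chosen with earlier results of these data known. The genes were 34 of the 32285 features in the count tables: 20 semaphorins, 9 plexins, 2 neuropilins and 3 RNAs annotated as antisense to Plxna4. The study compared Trem2 knockout (KO) with wild-type (WT) pups at postnatal day 1, and its title names neuronal bioenergetics as the question. There were 2 KO libraries, numbered 2 and 3, and 3 WT libraries, numbered 1, 2 and 3, each from hippocampi of 2 pooled pups, with no treatment named. No Cre line or tissue restriction is named for the knockout, and the deleted stretch and the strain are not given in the sources used here. The descriptions give 2 males for the libraries numbered 2 and 1 male with 1 female for the others, while another label gives both sexes for all libraries.

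Semaphorins are secreted, membrane-bound or lipid-anchored cues that steer axons, migrating neurons and growing vessels. Plexins are their signalling receptors: they act on small GTPases and, through collapsin response mediator proteins (the Dpysl genes and Crmp1), on the cytoskeleton of the growth cone. Most class 3 semaphorins do not bind plexins of class A directly and need Nrp1 or Nrp2 as the ligand-binding partner, whereas Sema3e binds plexin D1 and the membrane-bound classes bind plexins without a neuropilin. In the hippocampus, Sema3f with Nrp2 and Sema6a with plexins A2 and A4 are known from mouse mutants for the layering of mossy fibre axons, which run from dentate granule cells to CA3.

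Cells were assigned to 16 classes by counting marker genes with at least 1 UMI (a unique molecular tag, 1 per captured transcript), and no semaphorin, plexin or neuropilin was among the markers. The libraries held 60024793 to 91205882 UMIs, and 29106 cells were kept, of which 21750 fell in 1 of the classes. The classes ran from 5436 excitatory neurons of no named field ("other excitatory") to 152 border macrophages, and 14 of them had at least 20 cells in every library. Between 12 and 26 barcodes were shared by any 2 libraries, at most 0.35% of the smaller one. Levels are CPM, UMI counts scaled to the same total in every class and library. The kit reads only the 3′ end of each transcript, so CPM is not scaled by length, and a lower level cannot be told apart from fewer captured transcripts per cell. Neurod6, a transcription factor of excitatory neurons, was found in 8 non-neuronal classes at 1.60% to 5.93% of its CA3 level, taken here as the level of free neuronal RNA. Trem2, the lipid-sensing receptor deleted in the KO (ENSMUSG00000023992, chromosome 17, 48346401 to 48354147, mm10), was at 56.2 and 98.1 CPM in microglia of KO libraries and 1415, 1543 and 1012 CPM in those of WT libraries. The log2 ratio of KO to WT was -4.17 (SE 0.37, adjusted p = 0.00376) by edgeR's quasi-likelihood test with Benjamini-Hochberg adjustment.

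The receptor and ligand genes were spread over different cells, as the plot of all members by class shows. Excitatory neurons held the most neuropilin and class A plexin RNA, endothelial and Cajal-Retzius cells held Plxnd1, and ependymal, mural and myeloid cells held Plxnb2. Semaphorins with high levels had a class of their own: Sema3c in excitatory neurons and intermediate progenitors, Sema5a in dentate granule cells, Sema6d in mural cells and Sema6a in endothelial cells and astrocytes. Of the 34 members, 16 had their highest level in the same class in all 5 libraries and 10 more in 4 of them. For 12 members the ranges of the first and the second class over the libraries were apart, and for 22 they overlapped.

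**Figure D1:**
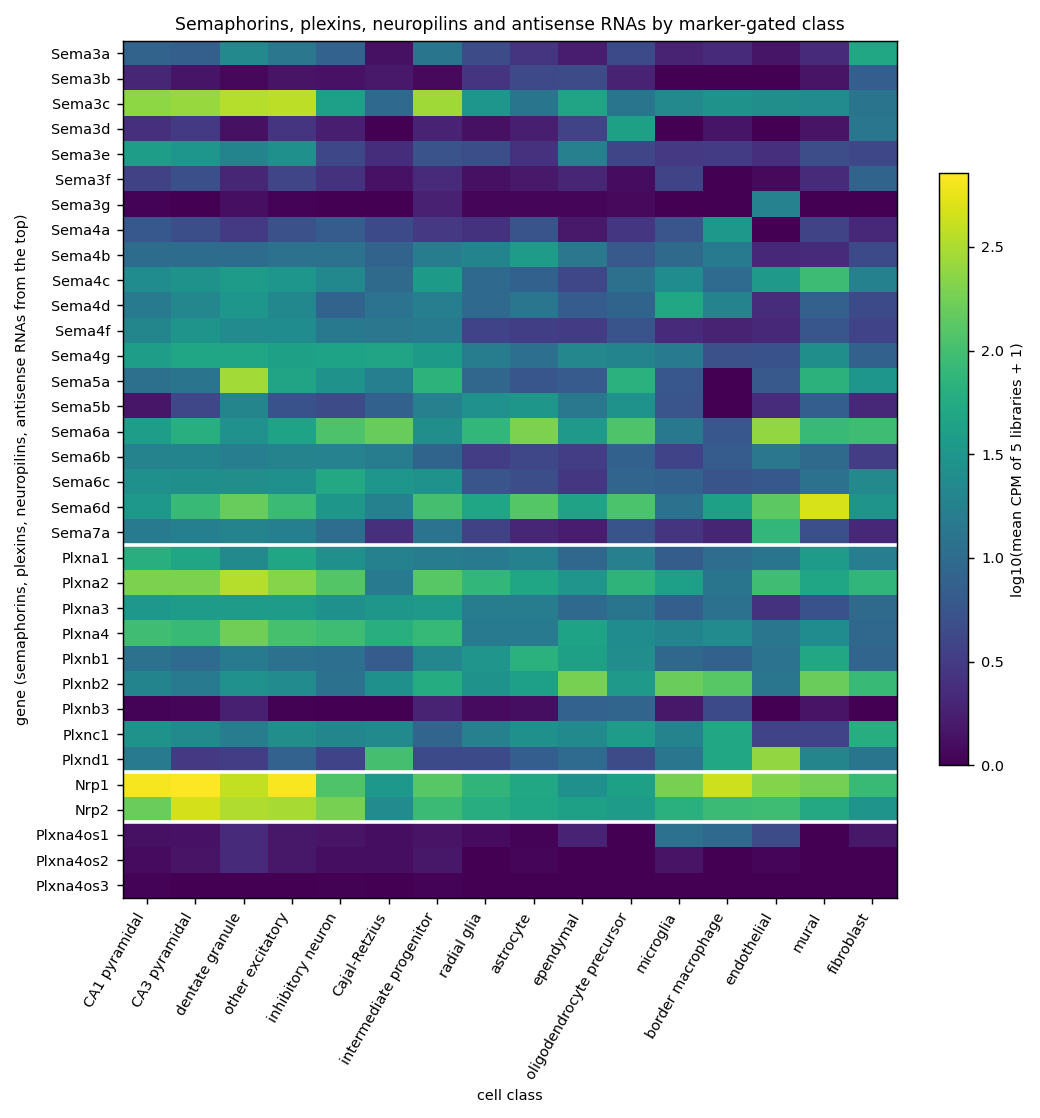
Level of each of the 34 genes (rows, by role) in each of the 16 marker-gated classes (columns), as log10 of the mean CPM of 5 libraries plus 1. The highest levels are those of Nrp1 in CA3, CA1 and other excitatory neurons (715, 657 and 663 CPM), Sema6d in mural cells (486 CPM) and Nrp2 in CA3 (471 CPM).

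Each class was set against the mean of the other classes in 1 edgeR fit with the library as a block, over the 14 classes with enough cells. A call needs an adjusted p under 0.05 and at least a 2-fold difference. Of the 34 members, 32 passed the filter on low counts, some of them, such as Sema3g with 114 UMIs in the 16 classes together, only through the class where they are high. The other 2, Plxna4os2 and Plxna4os3, had 99 and 4 UMIs in the 16 classes together. Neurons of the excitatory lineage had the most members higher. In dentate granule cells 21 of the 32 were higher and 2 lower, against 11.4% and 9.33% of all 15040 features tested, and their median log2 difference was 1.28 against 0.03 for all features. Other excitatory neurons had 19 higher and 0 lower (14.2% and 8.93% of all features, medians 1.2 and 0.03). In these cells 28 of the 32 had an unadjusted p under 0.05 by edgeR, and DESeq2 called 2 lower. CA3 neurons had 17 higher and 2 lower (14.9% and 10.7%, medians 1.08 and -0.01), and CA1 neurons 15 higher and 1 lower (13.5% and 12.1%, medians 0.94 and 0.00213). Intermediate progenitors, the precursors of excitatory neurons, had 12 higher and 3 lower (8.8% and 8.74%), and inhibitory neurons 7 higher and 2 lower (14.2% and 11.6%).

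In the other classes more members were lower than higher or the counts were near each other. Cajal-Retzius cells, the early Reln-producing neurons of the marginal zone, had 7 members higher and 10 lower, against 13.2% and 13% of all features. Astrocytes had 7 higher and 13 lower (18.3% and 8.76%), radial glia 4 and 10 (12.8% and 5.57%) and ependymal cells 7 and 14 (26.2% and 18.6%). Oligodendrocyte precursors had 5 higher and 7 lower (13.1% and 6.31%). Microglia had 4 and 13 (16.7% and 18.9%), endothelial cells 7 and 14 (18.0% and 19.9%) and fibroblasts 6 and 10 (18.4% and 13.7%). Border macrophages and mural cells, each library holding 8 or more cells, were added in a fit over 16 classes after the data had been seen. They had 6 higher and 6 lower each, against 16.8% and 15.1% of all features in border macrophages and 14.1% and 8.1% in mural cells. With a mitochondrial limit of 5% in place of 15%, 10 members were called higher in CA3, 7 in intermediate progenitors, 4 in inhibitory neurons, 4 in astrocytes, 3 in Cajal-Retzius cells and 1 in radial glia. With doublets kept, 4 were called higher in inhibitory neurons, 4 in Cajal-Retzius cells and 2 in radial glia.

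Nrp1 and Nrp2, the co-receptors of secreted class 3 semaphorins and of VEGF, were both highest in CA3 neurons. Nrp1 (ENSMUSG00000025810, chromosome 8, 128358604 to 128503363, mm10) was there at 693 and 740.5 CPM in KO libraries and 723, 647 and 772 CPM in WT libraries. This level of 715 ± 47.3 CPM (SD, n = 5 libraries of both genotypes, as for every class mean with an error) lay 2.64 (SE 0.0602, adjusted p = 4.07e-49) above the mean of the other classes on the log2 scale by edgeR. CA1 and other excitatory neurons were close to it, with ranges that overlapped, at 657 ± 98.5 CPM and 663 ± 51.6 CPM. Outside neurons Nrp1 was highest in border macrophages, the macrophages of meninges and vessels, with 420.4 and 416 CPM in KO libraries and 417, 423 and 463 CPM in WT libraries. Endothelial cells, microglia and mural cells followed at 209 ± 26.6 CPM, 186 ± 23.7 CPM and 182 ± 38.5 CPM, which is 29.2%, 26.1% and 25.5% of the CA3 level. In Cajal-Retzius cells, ependymal cells and oligodendrocyte precursors it was at 4.54%, 3.64% and 5.71% of that level, and Neurod6 was at 2.54%, 1.60% and 4.33% of its highest level in the same 3 classes, below the Nrp1 share in each.

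Nrp2 (ENSMUSG00000025969, chromosome 1, 62703285 to 62818695, mm10) set CA3 apart from CA1. In CA3 it was at 429.5 and 548 CPM in KO libraries and 476, 347 and 554 CPM in WT libraries, and in CA1 at 165 and 196 CPM in KO libraries and 146, 117 and 178 CPM in WT libraries, so every CA3 value lay above every CA1 value. The CA1 minus CA3 difference was -1.57 (SE 0.11, adjusted p = 1.24e-20) by edgeR. Dentate granule cells, other excitatory neurons and inhibitory neurons had 324 ± 83.0 CPM, 304 ± 47.0 CPM and 183 ± 34 CPM. The CA3 and dentate ranges overlapped. Nrp2 was also measured in endothelial cells and border macrophages (92.6 and 88.0 CPM) and was lowest in Cajal-Retzius cells (22.6 CPM, 4.79% of CA3).

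Plexins of class A, the signalling partners of the neuropilins and the direct receptors of class 6 semaphorins, peaked in neurons. Plxna2 was highest in dentate granule cells, at 325 and 358 CPM in KO libraries and 372, 299.8 and 351 CPM in WT libraries, 2.19 (SE 0.0672, adjusted p = 2.08e-41) above the other classes by edgeR. Every dentate value was above every value of the next class, other excitatory neurons (215 ± 12 CPM). Plxna4 had the same order of its first 2 classes, with 149 and 199 CPM in KO libraries and 188, 128 and 185 CPM in WT libraries in dentate granule cells, against 105 ± 9.05 CPM in other excitatory neurons. Its dentate difference was 2.29 (SE 0.0790, adjusted p = 1.96e-38) by edgeR. Plxna1 went the other way within the hippocampal fields: it was highest in CA1 (48.0 and 78.5 CPM in KO libraries and 63.2, 56.4 and 59.7 CPM in WT libraries) and was -1.55 (SE 0.12, adjusted p = 3.46e-18) in dentate granule cells relative to CA1 by edgeR. Plxna3 was even across the neuronal classes, with means between 26.1 CPM in inhibitory neurons and 36.9 CPM in dentate granule cells. Its dentate values were 30.8 and 34.5 CPM in KO libraries and 45.2, 39.4 and 34.7 CPM in WT libraries, and the range overlapped that of every other neuronal class.

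Plxnd1, the receptor of Sema3e, was a gene of vessels and of Cajal-Retzius cells. In endothelial cells it was at 272 and 237 CPM in KO libraries and 301, 191 and 228 CPM in WT libraries (5.36, SE 0.10, adjusted p = 2.52e-55 above the other classes by edgeR). In Cajal-Retzius cells it was at 94.9 and 107 CPM in KO libraries and 127, 86.1 and 99.7 CPM in WT libraries (3.94, SE 0.0876, adjusted p = 5.83e-51). The 2 ranges did not overlap, and the Cajal-Retzius level was 41.9% of the endothelial one. Border macrophages had 50.9 ± 24.6 CPM, from 2 to 29 UMIs per library. CA1 neurons had 14.2 ± 4.30 CPM, CA3 neurons 1.94 ± 0.427 CPM and dentate granule cells 2.29 ± 0.781 CPM, and CA1 exceeded CA3 by 2.77 (SE 0.25, adjusted p = 4.48e-15) by edgeR.

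**Figure D2:**
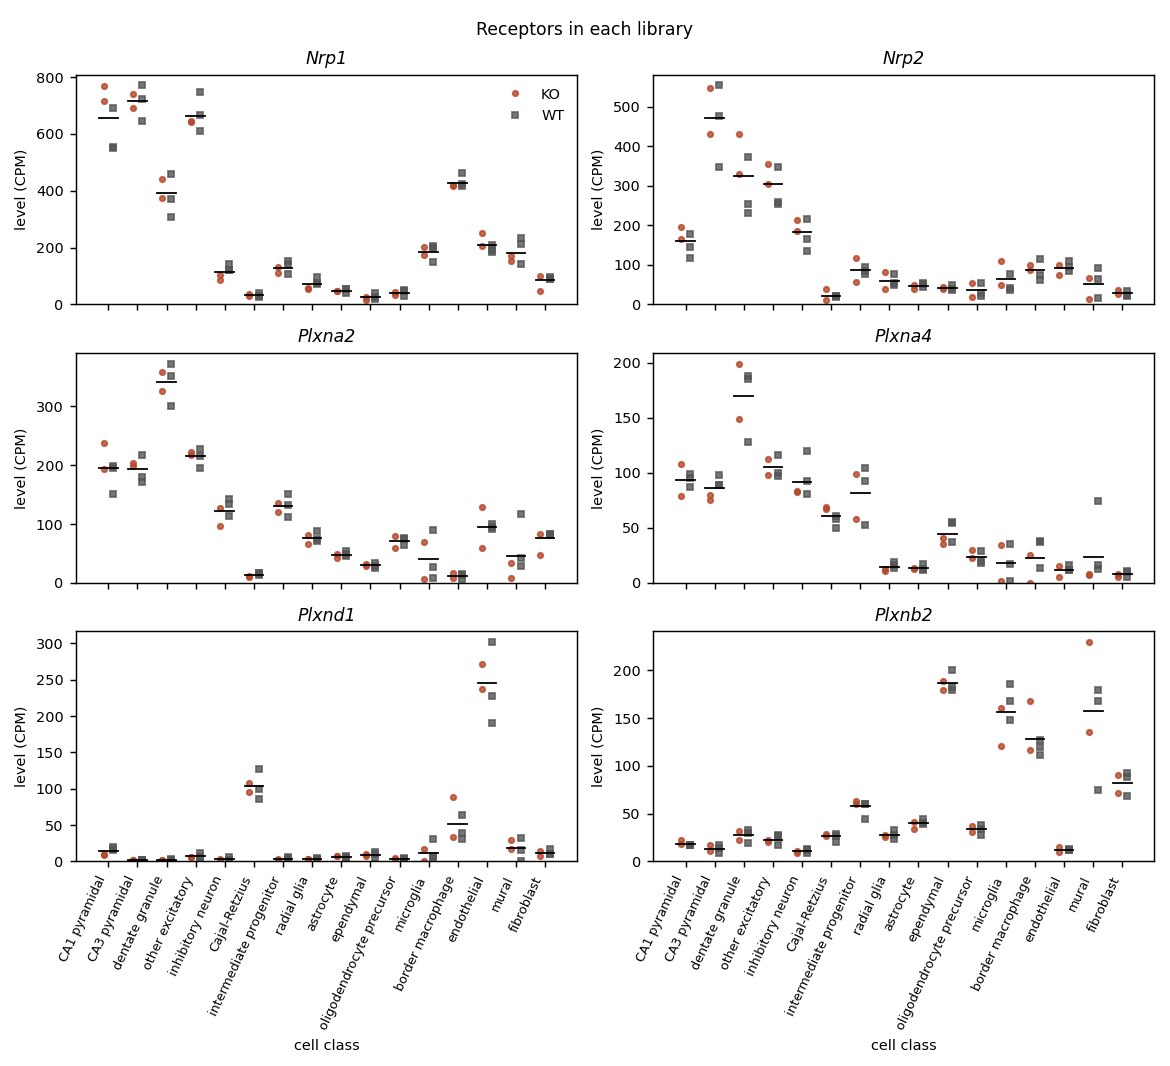
Level (CPM, linear axis from 0) of 6 receptor genes in each class, with 1 point per library (KO left, WT right of the centre) and a line at the mean of 5 libraries. Nrp2 separates CA3 (471 CPM) from CA1 (160.1 CPM), Plxna2 and Plxna4 peak in dentate granule cells, Plxnd1 in endothelial and Cajal-Retzius cells, and Plxnb2 in ependymal, mural and myeloid cells.

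Plexins of class B, receptors of class 4 semaphorins, were highest in glial, ependymal, mural and myeloid cells. Plxnb1 was highest in astrocytes at 64.5 and 69.0 CPM in KO libraries and 78.1, 60.8 and 56.1 CPM in WT libraries (2.39, SE 0.0776, adjusted p = 9.78e-41 above the other classes by edgeR). Mural and ependymal cells had 49.0 ± 24.2 CPM and 41.4 ± 8.72 CPM, and the mural range overlapped the astrocyte one. Plxnb2 was at 189 and 179.7 CPM in KO libraries and 201, 179 and 183 CPM in WT libraries in ependymal cells (2.43, SE 0.0595, adjusted p = 7.47e-49 by edgeR), and at 161 and 121 CPM in KO libraries and 186, 168 and 148 CPM in WT libraries in microglia (2.69, SE 0.11, adjusted p = 2.16e-35). Mural cells had 157 ± 57.5 CPM of Plxnb2 and fibroblasts 82.5 ± 11.3 CPM. Endothelial cells, at 12.3 ± 1.98 CPM, had 6.63% of the ependymal level. Plxnb3 was low everywhere: oligodendrocyte precursors had 8.37 and 6.16 CPM in KO libraries and 16.8, 3.08 and 3.25 CPM in WT libraries and ependymal cells 4.30 and 10.4 CPM in KO libraries and 6.30, 5.34 and 8.36 CPM in WT libraries, and its 208 UMIs make these values coarse. Plxnc1, the receptor of Sema7a, was highest in fibroblasts (58.4 and 67.2 CPM in KO libraries and 58.1, 46.7 and 68.3 CPM in WT libraries), followed by border macrophages with 50.3 ± 9.63 CPM, and the ranges overlapped.

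Among class 3 semaphorins, the secreted ligands, 4 genes of chromosome 5 each had their highest mean level in a different cell class. On mm10 they run, all on the plus strand, from Sema3d (12383385 to 12588948) through Sema3a (13125414 to 13602565) and Sema3e (14025276 to 14256689) to Sema3c (17574281 to 17730268). Sema3c lies farther from Sema3e than the other 3 lie from each other. Their promoters are shown because these 4 genes of 1 semaphorin class and 1 chromosome had their highest mean levels in 4 different cell classes, of which the first overlapped the second in range for Sema3e and Sema3c. Each is 300 bases, from 250 before to 50 after the start, on GRCm38.p6 (mm10) and the plus strand as given by RefSeq. Capitals mark the GC box GGGCGG and the E-box CAGATG on either strand.
Sema3d promoter: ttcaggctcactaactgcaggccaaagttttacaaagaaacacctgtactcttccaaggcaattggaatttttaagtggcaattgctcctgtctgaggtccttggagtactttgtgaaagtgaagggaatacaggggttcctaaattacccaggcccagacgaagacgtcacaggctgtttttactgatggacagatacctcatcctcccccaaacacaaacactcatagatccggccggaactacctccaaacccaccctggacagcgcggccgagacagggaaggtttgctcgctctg
Sema3a promoter: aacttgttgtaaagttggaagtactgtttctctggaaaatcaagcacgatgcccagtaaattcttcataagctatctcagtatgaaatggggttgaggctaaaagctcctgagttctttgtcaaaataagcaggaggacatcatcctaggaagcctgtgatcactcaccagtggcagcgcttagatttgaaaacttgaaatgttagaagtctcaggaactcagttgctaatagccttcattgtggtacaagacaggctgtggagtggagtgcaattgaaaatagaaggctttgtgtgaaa
Sema3e promoter: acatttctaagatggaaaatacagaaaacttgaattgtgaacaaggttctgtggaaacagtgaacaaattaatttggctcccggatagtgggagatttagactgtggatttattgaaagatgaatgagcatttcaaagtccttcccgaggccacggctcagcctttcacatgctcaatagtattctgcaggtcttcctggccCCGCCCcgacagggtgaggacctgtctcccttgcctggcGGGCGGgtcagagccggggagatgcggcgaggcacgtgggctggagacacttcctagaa
Sema3c promoter: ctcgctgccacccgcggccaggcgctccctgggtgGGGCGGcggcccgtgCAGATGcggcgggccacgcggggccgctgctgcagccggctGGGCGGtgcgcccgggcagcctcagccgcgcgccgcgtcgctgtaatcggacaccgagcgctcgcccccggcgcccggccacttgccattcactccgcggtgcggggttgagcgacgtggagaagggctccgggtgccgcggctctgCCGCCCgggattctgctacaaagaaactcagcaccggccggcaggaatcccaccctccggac
They lie at chr5:12382916-12383215, chr5:13396534-13396833, chr5:14025026-14025325 and chr5:17574566-17574865. The windows belong to RefSeq starts. For Sema3d, Sema3a and Sema3c these differ from the starts of the GENCODE annotation used for the positions above, and for Sema3e the start is the same. The Sema3a and Sema3c windows lie inside the GENCODE gene, and the Sema3d window ends before it begins. Their GC content was 49.7%, 41.3%, 50.7% and 75.7%. The Sema3c window held 1 E-box and 3 GC boxes and the Sema3e window 2 GC boxes, and neither string is in the Sema3d or Sema3a window. GGGCGG or its reverse complement was in 35.7% of all 32851 promoters of the table and in 27 of the 37 that belong to 26 of the members. CAGATG or its reverse complement was in 17.2% of all promoters and 2 of those 37.

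Sema3c, which acts through neuropilins with plexin A or D receptors, had the highest mean level of the 20 semaphorins in CA1, CA3, dentate granule cells, other excitatory neurons and intermediate progenitors. In dentate granule cells this did not hold in every library, since Sema5a was at 364 CPM and Sema3c at 288 CPM in KO replicate 3. Other excitatory neurons held 363 and 308 CPM in KO libraries and 416, 379 and 369.7 CPM in WT libraries, 3.08 (SE 0.0789, adjusted p = 4.21e-46) above the other classes by edgeR, with a range that overlapped that of dentate granule cells (345 ± 45.8 CPM). Intermediate progenitors, at 247 and 278 CPM in KO libraries and 319, 257 and 298 CPM in WT libraries, exceeded radial glia (30.6 ± 12.4 CPM) by 3.24 (SE 0.17, adjusted p = 9.04e-27) by edgeR. Inhibitory neurons had 39.7 ± 11.4 CPM, and Cajal-Retzius cells 8.37 ± 3.46 CPM, which is 2.28% of the highest class and no more than the Neurod6 share there (2.54%). Sema3e, the plexin D1 ligand, was highest in CA1 at 33.2 and 32 CPM in KO libraries and 40.9, 43.9 and 42.7 CPM in WT libraries, with a range that overlapped that of CA3 (30.3 ± 3.66 CPM) and lay above every dentate value (18.3 ± 5.56 CPM). In endothelial cells, the class with the most Plxnd1, Sema3e was at 1.47 CPM.

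Sema3d was held by oligodendrocyte precursors, with 38.1 and 36.1 CPM in KO libraries and 38.9, 44.9 and 48.7 CPM in WT libraries, and by fibroblasts (12.3 ± 2.88 CPM). All precursor values lay above all fibroblast values, and astrocytes were at 0.727 ± 0.297 CPM. Sema3a, the ligand that collapses growth cones through Nrp1, was highest in fibroblasts, with 63.1 and 60.1 CPM in KO libraries and 51.6, 41.0 and 28.2 CPM in WT libraries (4.02, SE 0.19, adjusted p = 4.01e-31 by edgeR), and next in dentate granule cells (20.9 ± 3.44 CPM). No fibroblast value fell into the dentate range. Sema3g was at 26.4 and 17.3 CPM in KO libraries and 8.91, 13.4 and 21.2 CPM in WT libraries in endothelial cells, and in no other class did its mean reach 1 CPM. Sema3b and Sema3f, neighbours on chromosome 9, were low. Fibroblasts led both, with 6.06 ± 2.20 CPM for Sema3b and 7.38 ± 5.0 CPM for Sema3f, the mossy fibre cue, which CA3 neurons held at 4.0 ± 1.37 CPM.

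**Figure D3:**
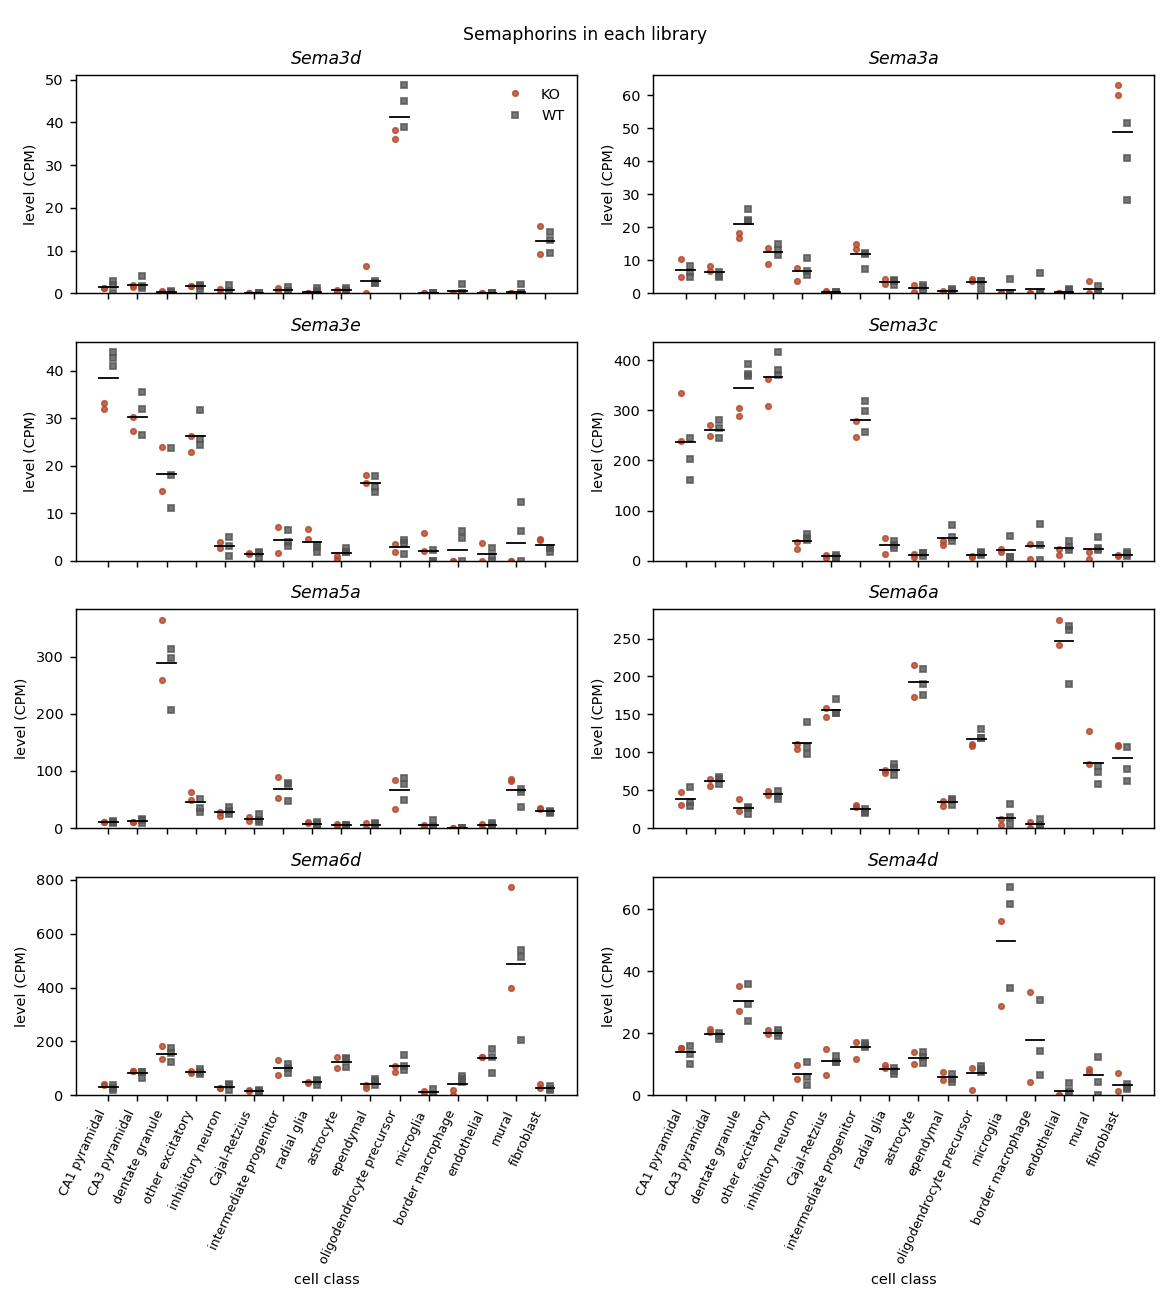
Level (CPM, linear axis from 0) of 8 semaphorins in each class, with 1 point per library (KO left, WT right of the centre) and a line at the mean of 5 libraries. The first 4 panels are the chromosome 5 neighbours, which peak in oligodendrocyte precursors (Sema3d, 41.4 CPM), fibroblasts (Sema3a, 48.8 CPM), CA1 (Sema3e, 38.5 CPM) and other excitatory neurons (Sema3c, 367 CPM).

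Sema5a, a membrane-bound semaphorin that is known from mouse to limit synapse formation in granule cells, stood apart in dentate granule cells. There it was at 258 and 364 CPM in KO libraries and 297, 206 and 313 CPM in WT libraries, 4.34 (SE 0.0779, adjusted p = 1.44e-55) above the other classes by edgeR. CA3 and CA1 neurons had 11.6 ± 2.67 CPM and 10.4 ± 1.51 CPM, and intermediate progenitors, the next class, 69.0 ± 18.3 CPM. The lowest dentate library was above the highest library of each of the other 15 classes. Sema5b was glial: astrocytes had 31.8 and 39.5 CPM in KO libraries and 31.6, 28.6 and 26.8 CPM in WT libraries, and oligodendrocyte precursors and radial glia had 28.5 ± 5.21 CPM and 26.8 ± 5.28 CPM, with overlapping ranges. Among neurons Sema5b was highest in dentate granule cells (18.9 ± 6.78 CPM), where it exceeded CA3 by 2.61 (SE 0.22, adjusted p = 1.25e-16) by edgeR.

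Class 6 semaphorins, which span the membrane and bind class A plexins, differed from each other in place. Sema6a was at 242 and 275 CPM in KO libraries and 267, 189.6 and 261 CPM in WT libraries in endothelial cells (2.20, SE 0.0894, adjusted p = 1.16e-34 by edgeR), and astrocytes and Cajal-Retzius cells followed with 193 ± 19.3 CPM and 156 ± 9.05 CPM. Endothelial and astrocyte ranges overlapped. Among the neuronal classes it was lowest in dentate granule cells (27.0 ± 7.35 CPM), the class with the most Plxna2 and Plxna4. Sema6d was highest in mural cells, at 399.9 and 773 CPM in KO libraries and 538, 205 and 513 CPM in WT libraries, with the lowest mural library above every library of every other class, and 3.12 (SE 0.13, adjusted p = 1.15e-36) above the other classes in the 16-class fit by edgeR. The libraries spread widely there, from 33 to 244 UMIs. Dentate granule cells held 155 ± 25.1 CPM of Sema6d. Sema6c was highest in inhibitory neurons at 56.4 and 58.2 CPM in KO libraries and 50.2, 54.4 and 39.1 CPM in WT libraries (2.25, SE 0.10, adjusted p = 2.79e-33 by edgeR), and all these values were above those of Cajal-Retzius cells (30.4 ± 4.51 CPM). Sema6b was even across neurons, with means from 14.9 CPM in Cajal-Retzius cells to 18.6 CPM in CA3, where its values were 18.7 and 19.6 CPM in KO libraries and 19.7, 20.8 and 14.2 CPM in WT libraries.

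Class 4 semaphorins, ligands of class B plexins and of immune receptors, and Sema7a, which is lipid-anchored, were highest in immune, vascular, glial or neuronal cells. Sema4d was highest in microglia at 56.2 and 28.8 CPM in KO libraries and 61.7, 34.6 and 67.1 CPM in WT libraries (2.75, SE 0.19, adjusted p = 6.58e-21 by edgeR), on 5 to 57 UMIs per library, and its range overlapped those of dentate granule cells (30.3 ± 5.14 CPM) and border macrophages. Sema4a, a ligand in T-cell priming, was highest in border macrophages, at 50.5 and 0 CPM in KO libraries and 34.9, 19.2 and 55.6 CPM in WT libraries, but 1 of these libraries had 0 UMIs among its 8 cells. Sema4c was at 102 and 82.6 CPM in KO libraries and 100.3, 55.8 and 107 CPM in WT libraries in mural cells, above every value of every other class. Sema4b was at 33.7 and 41.3 CPM in KO libraries and 37.4, 35.9 and 37.7 CPM in WT libraries in astrocytes, apart from radial glia (18.3 ± 1.71 CPM). Sema4f and Sema4g were neuronal: Sema4f was at 29.4 and 35.2 CPM in KO libraries and 32.2, 21.7 and 26.0 CPM in WT libraries in CA3, and Sema4g at 42.9 and 57.1 CPM in KO libraries and 51.5, 39.4 and 51.2 CPM in WT libraries in dentate granule cells, with ranges that overlapped other neurons. Sema7a was at 79.3 and 71.5 CPM in KO libraries and 78.7, 48.1 and 101 CPM in WT libraries in endothelial cells (4.26, SE 0.15, adjusted p = 3.59e-38 by edgeR), above every value of the next class, dentate granule cells (17.9 ± 3.46 CPM).

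Summed over genes, the receptor side (9 plexins and 2 neuropilins) and the ligand side (20 semaphorins) differed in their ratio between classes, given here as a description with no test. Receptors exceeded ligands most in border macrophages (811 ± 47.2 CPM against 167 ± 51.2 CPM) and microglia (515 ± 99.9 CPM against 174 ± 60.1 CPM), with receptor-to-ligand ratios of 5.23 ± 1.55 and 3.12 ± 0.63 (SD, n = 5 libraries). CA3 and CA1 neurons had the next highest ratios, 2.41 ± 0.20 and 2.38 ± 0.19, with neuropilins giving 1186 of the 1596 CPM of receptors in CA3. Dentate granule cells had the most semaphorin RNA of the 16 classes, with 1343 ± 161 CPM of receptors against 1083 ± 103 CPM of ligands, a ratio of 1.24 ± 0.11. Without the neuropilins, the mean levels of the plexins summed to less than those of the semaphorins in CA3, CA1 and dentate granule cells. Ligands exceeded receptors in oligodendrocyte precursors (0.68 ± 0.06), astrocytes (0.72 ± 0.06) and intermediate progenitors (0.84 ± 0.03), in each of the 5 libraries. In Cajal-Retzius cells the sides were even, at 0.98 ± 0.04. Mural cells ranged from 0.43 to 1.06, and most of their ligand side was Sema6d.

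**Figure D4:**
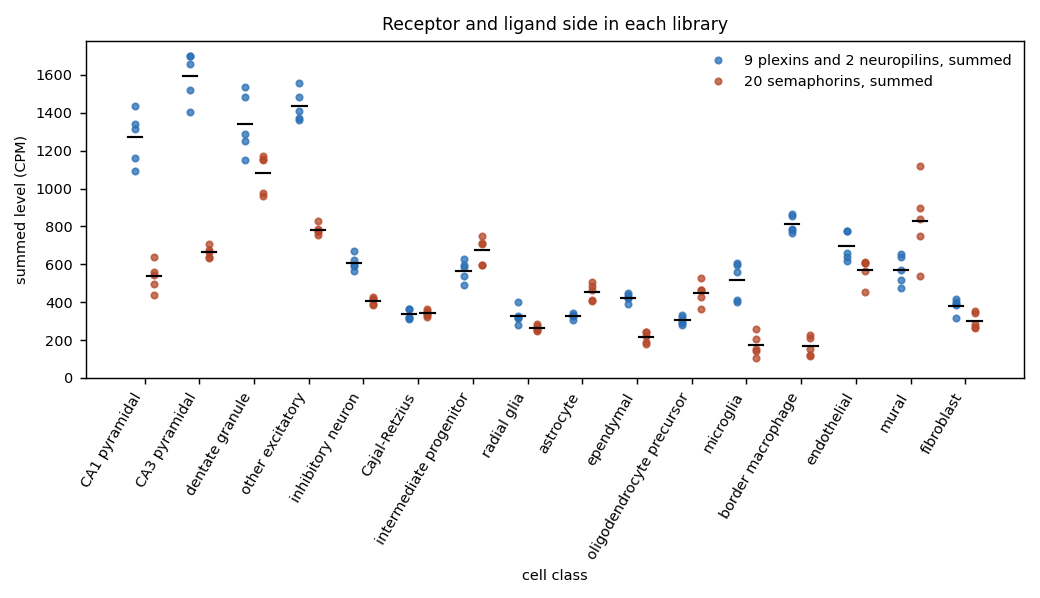
Summed level (CPM, linear axis from 0) of the 9 plexins and 2 neuropilins (blue, left) and of the 20 semaphorins (red, right) in each class, with 1 point per library and a line at the mean. Receptors stand highest in CA3 (1596 CPM) and ligands in dentate granule cells (1083 CPM), and ligands lie above receptors in oligodendrocyte precursors, astrocytes and intermediate progenitors.

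Neighbouring classes were compared in the same fit. Between the pyramidal fields, CA1 minus CA3 gave 1 of the 32 members higher, Plxnd1, against 3.03% of all features. The 3 lower ones were Nrp2, Sema6d (-1.35, SE 0.12, adjusted p = 4.96e-16 by edgeR) and Sema5b, against 5.45% of all features. Sema5b was at 0.632 and 0.942 CPM in KO libraries and 0.372, 0 and 0.416 CPM in WT libraries in CA1, on 8 UMIs in all, and at 3.01 ± 0.749 CPM in CA3. Dentate granule cells minus CA3 gave 6 higher and 5 lower (6.42% and 8.3% of all features). Sema5a (4.62), Sema5b (2.61) and Sema3a (1.63) were among the higher ones, and Plxna1 (-1.19) and Sema6a (-1.2) among the lower ones. Against CA1, dentate granule cells had 7 higher and 6 lower (8.41% and 7.46%), with Sema6d at 2.18 and Plxnd1 at -2.48.

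Cajal-Retzius cells held little neuropilin and Plxna2 RNA. Against the 4 excitatory classes they had 2 members higher, Plxnd1 (4.44, SE 0.10, adjusted p = 3.04e-50 by edgeR) and Sema6a (1.90, SE 0.0766, adjusted p = 1.34e-34), and 13 lower (11.3% and 12.4% of all features). Nrp1, Nrp2, Plxna2, Sema3c, Sema3e and Sema3a had differences of -4.23, -3.76, -4.09, -5.23, -4.33 and -4.91 on the log2 scale. Plxna4, in contrast, was measured at 69.2 and 66.8 CPM in KO libraries and 61.2, 50.3 and 57.7 CPM in WT libraries, and Plxna3 was called higher there than in the mean of the other classes. Inhibitory neurons had 2 members higher than excitatory neurons, Sema6a (1.38, SE 0.0838, adjusted p = 4.83e-24 by edgeR) and Sema6c (1.02, SE 0.0862, adjusted p = 4.69e-17), and 6 lower (8.09% and 6.99% of all features). The lower ones were Sema3e (-3.15), Sema3c (-3.01), Nrp1 (-2.43), Sema4d (-1.38), Sema6d (-1.36) and Plxnd1 (-1.12).

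Inhibitory neurons were split, after the data had been seen, by markers of the medial and the caudal ganglionic eminence (MGE and CGE), the 2 main birthplaces of hippocampal interneurons. There were 609 MGE and 500 CGE cells, at least 33 of each in every library. Sema6c was at 76.4 and 78.9 CPM in KO and 59.6, 49.1 and 52.9 CPM in WT libraries in MGE cells, against 23.0 and 38.3 CPM in KO and 37.6, 38.6 and 20.9 CPM in WT libraries in CGE cells. The MGE minus CGE difference was 1.13 (SE 0.15, adjusted p = 8.15e-07) by edgeR. Sema5a differed the other way, with 21.3 ± 7.55 CPM in MGE and 40.9 ± 10.8 CPM in CGE cells (SD, n = 5), a difference of -1.15 (SE 0.19, adjusted p = 1.93e-05). These 2 were the calls among the 20 members tested, 1 higher and 1 lower, against 2.13% and 1.95% of all 9107 features. Each fell under 2-fold in 1 of the 5 fits that leave out 1 library, Sema6c without KO replicate 2 and Sema5a without KO replicate 3 (differences 0.998 and -0.88). Sema6a, at 77.9 ± 7.32 CPM in MGE and 162 ± 39.0 CPM in CGE cells, had an adjusted p of 3.07e-10 by edgeR at a difference of -0.99, just under 2-fold. Another 4 members were past the p threshold and not 2-fold. Sema3c was at 31.2 ± 19.3 CPM in MGE and 60.4 ± 11.8 CPM in CGE cells, -0.93 (SE 0.18, adjusted p = 1.96e-04) by edgeR, and was called in 2 of the 5 fits that leave out 1 library. Sema6d, at 43.4 ± 11.1 CPM and 22.8 ± 5.97 CPM, differed by 0.85 (SE 0.16, adjusted p = 1.38e-04). Nrp2, at 197 ± 43.5 CPM and 151 ± 30.3 CPM, differed by 0.43 (SE 0.0833, adjusted p = 2.41e-04), and Plxna2, at 110.1 ± 16.8 CPM and 136 ± 26.6 CPM, by -0.28 (SE 0.0916, adjusted p = 0.0358).

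Along the excitatory lineage, intermediate progenitors minus radial glia gave 14 members higher and 3 lower (9.52% and 14.8% of all features). Besides Sema3c, the higher ones included Sema5a (3.21), Sema6c (2.60), Plxna4 (2.51) and Sema4c (2.11). The 3 lower ones were Sema3b (-2.76), Sema6a (-1.57) and Plxnc1 (-1.07). Astrocytes minus radial glia gave 6 higher and 2 lower (8.41% and 5.53%), and Sema6d (1.44, SE 0.12, adjusted p = 2.82e-17 by edgeR), Sema6a (1.40), Plxnb1 (1.21) and Sema4b (1.11) were higher. Oligodendrocyte precursors minus astrocytes gave 5 higher and 4 lower (11.0% and 13.4%). Sema3d (5.67, SE 0.26, adjusted p = 6.02e-28 by edgeR), Plxnb3 (4.62) and Sema5a (3.75) were higher in the precursors, and Sema4b (-2.89) and Plxnb1 (-1.51) lower.

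In vessels the 2 cell layers held different members. Endothelial minus mural cells gave 7 higher and 8 lower (10.0% each way of all features) in the 16-class fit. Plxnd1 (3.59, SE 0.25, adjusted p = 3.34e-22 by edgeR), Sema7a (4.77), Sema6a (1.72) and Nrp2 (1.5) were endothelial. Plxnb2 (-3.47, SE 0.23, adjusted p = 1.48e-23 by edgeR), Sema5a (-3.72), Sema6d (-1.68) and Sema4c (-1.36) were mural. Sema3g had 0 UMIs in mural cells. Microglia minus border macrophages gave 2 higher, Sema4d (2.22, SE 0.37, adjusted p = 2.17e-06 by edgeR) and Sema4c (1.21), and 5 lower (3.75% and 4.05% of all features). The lower ones were Plxnd1 (-2.61), Sema6d (-2.54), Sema4a (-2.39), Plxnc1 (-1.16) and Nrp1 (-1.03). Border macrophages rest on 8 cells in the smallest library.

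Of the 3 antisense RNAs, Plxna4os1 had a pattern unlike Plxna4. Its highest mean was in microglia, at 10.0 and 5.77 CPM in KO libraries and 16.2, 17.3 and 4.48 CPM in WT libraries, on 1 to 15 UMIs per library, 5.29 (SE 0.44, adjusted p = 2.49e-17) above the other classes by edgeR, a value that depends on the prior count where classes hold few UMIs. Border macrophages, at 12.6 and 0 CPM in KO libraries and 6.55, 4.81 and 18.5 CPM in WT libraries on 0 to 3 UMIs per library, overlapped this range. The microglia minus border macrophage difference was 0.79 (SE 0.54, adjusted p = 0.418) by edgeR and did not pass. Plxna4 itself was at 2.01 and 34.6 CPM in KO libraries and 17.3, 1.57 and 35.8 CPM in WT libraries in microglia, a mean of 10.8% of its dentate level. The values of 34.6 and 35.8 CPM were from KO and WT replicate 3. Microglia of these libraries had medians of 3212.5 and 3342 UMIs per cell, against 9015 to 10742 in the others. The part of depth in these values was not tested. The exons of Plxna4os1 overlap none of Plxna4, whereas those of Plxna4os3 do on the other strand. In addition, exons of Plxna1, Plxnb1 and Sema4c overlap another listed gene on the other strand, and the sources used here do not say whether counting was by strand.

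Pathway genes were taken from a list of 57, of which 55 were tested by class. Beside downstream genes, the list held receptor partners, VEGF ligands, adhesion molecules, proteoglycans, and Trem2 with its adaptor. In CA3, 16 of them were higher and 6 lower, in other excitatory neurons 15 and 7, in inhibitory neurons 18 and 8 and in CA1 13 and 10, against the shares of all features given above for these classes. In CA1 the 4 with the smallest p were the Cdk5 activator Cdk5r1 (2.25), the adhesion molecules Chl1 (2.63) and L1cam (2.55), partners of neuropilins, and Crmp1 (2.32), the mediator of collapse, all higher. Crmp1 led in CA3 (2.81), beside the plexin-binding GTPase Rnd2 (2.35), which was lower in CA1 than in CA3 (-2.11). Met, a receptor kinase that pairs with class B plexins, was higher in CA1 than in CA3 (2.78). In endothelial cells 11 were higher and 23 lower, where 18.0% and 19.9% of all features were, and Kdr, the VEGF receptor that partners Nrp1, led (9.39). Microglia had 12 higher and 23 lower, against 16.7% and 18.9% of all features, led by Trem2 and its adaptor Tyrobp. Oligodendrocyte precursors had 8 higher and 6 lower, against 13.1% and 6.31% of all features, led by the proteoglycan genes Cspg4 and Bcan (5.31), of which Cspg4 is also a marker of that class.

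KO and WT libraries were then compared within each of the 14 classes, with edgeR on genotype alone. Of the members, 32 could be tested in at least 1 class and 6 in all 14. None of the 308 tests of a member in a class passed an adjusted p of 0.05 in edgeR, where 6 of 153517 tests over all features did (0.00391%). At an unadjusted p under 0.05 there were 22 member tests (7.14%), against 3.67% over all features, with 158 of the 308 log2 fold changes above 0 and 150 below. DESeq2 called 0 of the member tests. By class, the share of all features called was 0.0% in 9 classes, 0.00894% in CA1, 0.00883% in Cajal-Retzius cells, 0.0089% in inhibitory neurons, 0.0105% in fibroblasts and 0.0309% in microglia. The median over the members tested was largest in size in fibroblasts and CA1, at 0.19 and 0.19, with 20 of 26 members above 0 in CA1, while the medians of all features there were -5.11e-04 and 7.52e-04. The largest values by p are given as measurements.

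In CA1 neurons, which had 51 to 358 cells per library, Sema3c was at 334 and 239 CPM in KO libraries and 202, 162 and 244 CPM in WT libraries, and 1 WT value lay above 1 KO value. The log2 ratio of KO to WT was 0.50 (SE 0.16, adjusted p = 0.790) by edgeR, and the adjusted p was 0.0281 with no filter on low counts. Nrp1 was at 769.7 and 717 CPM in KO libraries and 555, 552 and 689.8 CPM in WT libraries, KO above WT in every library, 0.34 (SE 0.11, adjusted p = 0.790). Plxnd1 was at 10.7 and 9.10 CPM in KO libraries and 19.7, 15.1 and 16.4 CPM in WT libraries, KO below WT in every library, -0.77 (SE 0.25, adjusted p = 0.790). The markers that define CA1 differed between the same libraries: their summed level in the CA1 gate, over 7 genes with none at 0, was 2328 and 2284 CPM in KO libraries and 2795, 3023 and 2868 CPM in WT libraries. The 5 markers of subicular or cortical neurons summed to 712 and 669.9 CPM in KO libraries and 1143, 339.9 and 657 CPM in WT libraries. Their part in the CA1 values was not tested.

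In CA3 neurons Plxnb1 had the smallest p of all member tests. It was at 11.7 and 12.6 CPM in KO libraries and 7.15, 7.02 and 6.68 CPM in WT libraries, with both KO libraries above all WT libraries, a log2 ratio of 0.83 (SE 0.21, adjusted p = 0.713) by edgeR at a level 13.7% of that in astrocytes. Plxnc1 was at 14.1 and 19.8 CPM in KO libraries and 25.6, 25.3 and 25.8 CPM in WT libraries, KO below WT, -0.57 (SE 0.18, adjusted p = 0.937). Plxna4 was at 79.5 and 74.9 CPM in KO libraries and 97.7, 88.5 and 89.2 CPM in WT libraries, a log2 ratio of -0.22. The summed level of the 8 CA3 markers was 1180.1 and 1106 CPM in KO libraries and 1131, 1181 and 1099 CPM in WT libraries, with ranges that overlapped.

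In dentate granule cells Sema3c was at 304 and 288 CPM in KO libraries and 391, 369 and 373 CPM in WT libraries, KO below WT, -0.34 (SE 0.11, adjusted p = 0.999) by edgeR. Nrp2 (331 and 431 CPM in KO and 253, 231 and 373 CPM in WT) and Sema5b (19.9 and 27.4 CPM in KO and 22.9, 10.8 and 13.6 CPM in WT) had log2 ratios of 0.42 (SE 0.17, adjusted p = 0.999) and 0.63 (SE 0.27, adjusted p = 0.999), and for both the ranges of the genotypes overlapped. With the library number as a block, which compares only same-numbered libraries across genotypes, both passed in edgeR, Nrp2 at 0.37 (adjusted p = 0.0183) and Sema5b at 0.99 (adjusted p = 0.00192), and both were higher in KO in each same-numbered pair. No label gives that number a meaning beyond the replicate. By the descriptions, though, both libraries numbered 2 came from 2 males and both numbered 3 from 1 male with 1 female. The block therefore also separates the libraries by the pup sex given there. With a covariate for male pups in place of the block, the count of members called by genotype was unchanged in all 14 classes. Neither Nrp2 nor Sema5b passed in dentate granule cells in that fit. The part of pup sex in the block values was not tested further.

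Inhibitory neurons had Sema3c at 36.4 and 22.4 CPM in KO libraries and 53.0, 41.4 and 45.3 CPM in WT libraries (-0.70, SE 0.20, adjusted p = 0.666 by edgeR) and Nrp1 at 86.5 and 104 CPM in KO libraries and 142, 121 and 121 CPM in WT libraries (-0.40, SE 0.13, adjusted p = 0.895), both lower in every KO than in every WT library. Within the MGE and CGE cells the ranges of the genotypes overlapped, except for Nrp1 in MGE cells. Sema3c was at 24.4 and 14.6 CPM in KO libraries and 61.4, 17.2 and 38.5 CPM in WT libraries in MGE cells and 70.2 and 42.6 CPM in KO libraries and 53.9, 68.3 and 67.0 CPM in WT libraries in CGE cells. Nrp1 was at 77.2 and 121 CPM in KO libraries and 161, 157 and 126 CPM in WT libraries in MGE cells and 111 and 86.6 CPM in KO libraries and 109, 95 and 109 CPM in WT libraries in CGE cells. The third there, Sema6c, was at 56.4 and 58.2 CPM in KO and 50.2, 54.4 and 39.1 CPM in WT, 0.34, with KO above WT in every library. In MGE cells its KO values, 76.4 and 78.9 CPM, also lay above its WT values, 59.6, 49.1 and 52.9 CPM. In CGE cells its ranges overlapped. In the whole inhibitory neuron gate the 4 MGE markers summed to 1649.6 and 1678 CPM in KO libraries and 2207, 1699.8 and 1233 CPM in WT libraries. The 5 CGE markers summed to 766 and 775 CPM in KO libraries and 676, 841 and 799 CPM in WT libraries there. The part of these markers in the values was not tested.

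The value for Sema3c was above 0 in CA1 and below 0 in dentate granule and inhibitory neurons, and none of these passed the test. The difference itself was tested as the KO effect in a class minus that in the other classes, in 1 fit. For Sema3c in CA1 it was 0.77 (SE 0.20, adjusted p = 0.858 by edgeR) and for Nrp1 in CA1 0.49 (SE 0.14, adjusted p = 0.906). None of the 448 such tests of members passed in edgeR, 25 had an unadjusted p under 0.05, and no other tool was run. In CA1, 6 of the 32 members and 641 of all 15040 features had an unadjusted p under 0.05. Each of the other classes had 0 to 3 such members and 437 to 1113 such features. The share of all features called was 0.0% in the CA1 test, 0.0532% in that of microglia, 0.173% in that of endothelial cells and 0.0% in the others.

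**Figure D5:**
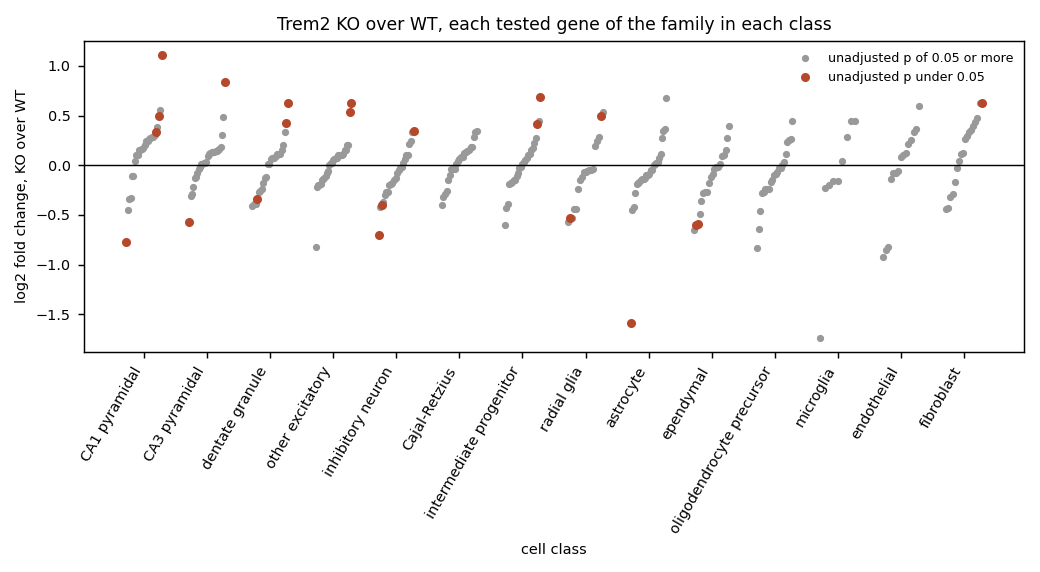
Log2 fold change of KO over WT for each member tested in each of the 14 classes, sorted within a class, with red points for an unadjusted p under 0.05 by edgeR. The 22 red points lie on both sides of 0, and none passes after adjustment.

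In the other classes the 3 members with the smallest p did not pass either. Other excitatory neurons had Sema5a at 0.54, Sema5b at 0.63 and Sema3c at -0.20, and with no filter on low counts Sema5a had an adjusted p of 0.025 by edgeR. Intermediate progenitors had Sema4b at 0.69 (18.8 and 19.9 CPM in KO and 13.7, 11.9 and 10.3 CPM in WT), Sema6a at 0.41 and Sema3a at 0.44. In radial glia Nrp1 was at 54.9 and 58.8 CPM in KO libraries and 98.2, 72.2 and 76.2 CPM in WT libraries, a log2 ratio of -0.53, with Sema5b at 0.49 and Plxnc1 at -0.57. Astrocytes had Sema3e at -1.58, on 1 to 20 UMIs per library, Sema6c at 0.67 and Sema5b at 0.28. Ependymal cells had Sema6d at -0.60 (28.6 and 37.7 CPM in KO and 53.3, 38.9 and 59.0 CPM in WT), Sema3c at -0.59 (-0.74 with the replicate block, adjusted p = 0.0244 by edgeR) and Sema5b at -0.65. Oligodendrocyte precursors had Sema3c at -0.83, Sema5b at 0.44 and Sema6d at -0.28. Cajal-Retzius cells had Plxna4 at 0.29, Plxna2 at -0.40 and Sema6b at -0.26. Endothelial cells had Sema3c at -0.92, Plxna1 at -0.85 and Plxna4 at -0.82 (0.0978 without KO replicate 3), and fibroblasts Sema3a at 0.63, Sema6a at 0.43 and Plxna2 at -0.31. The adjusted p of these was between 0.996 and 1.00 by edgeR.

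Microglia, the cells that express Trem2, had 36 to 97 cells per library, and 9 members could be tested there. Plxnc1 was at 10.0 and 0 CPM in KO libraries and 20.6, 22.0 and 35.8 CPM in WT libraries, with 5 and 0 UMIs in KO libraries and 19, 14 and 8 in WT libraries, -1.74 (SE 0.82, adjusted p = 0.999) by edgeR. The log2 ratio was 0.44 for Nrp2 and -0.20 for Plxnb2, and each changed sign without KO replicate 3 (-0.0555 and 0.00767). Plexin A1 is known from mouse myeloid cells and osteoclasts to associate with TREM2 and its adaptor as a receptor of Sema6d. Plxna1 did not pass the filter for the genotype test in microglia. It had 0 of 671738 UMIs in the KO libraries together, where 3 UMIs would be 4.47 CPM and the 95% exact Poisson interval reaches 5.49 CPM, and 17 of 1782071 in the WT libraries, which is 9.54 CPM (interval 5.56 to 15.3, counting error only). Per library, 0 UMIs allow up to 6.02 and 17.3 CPM in KO replicates 2 and 3, and the WT libraries had 11.9, 4.72 and 13.4 CPM, so the KO limits reach into the WT range. Sema6d was at 6.02 and 17.3 CPM in KO libraries and 6.50, 1.57 and 22.4 CPM in WT libraries in microglia, on 1 to 6 UMIs per library. Its values of 17.3 and 22.4 CPM were from KO and WT replicate 3, the libraries with the fewest UMIs per microglial cell. In border macrophages Plxna1 was at 4.20 and 0 CPM in KO libraries and 8.74, 28.9 and 6.18 CPM in WT libraries, and Sema6d at 21 and 0 CPM in KO libraries and 61.1, 72.2 and 49.4 CPM in WT libraries (-1.88, SE 0.64, adjusted p = 0.998 by edgeR), on few cells and not past the test. The share of all features called there was 0.0256%.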

How the data were processed

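Gene expression was measured in single cells with the 10x 3′ kit version 3.1, per the labels' protocols. The deposited values are raw UMI counts per feature and cell barcode, 1 matrix per library, which the authors made with Cell Ranger 6.1 on mm10, per the submitters' processing notes. The annotation release and the strand setting are not given in the sources used here. The barcodes and features deposited beside them are text and hold no other unit.

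Barcodes with under 500 genes, under 1000 UMIs or over 15% mitochondrial UMIs were left out. Doublets were marked with Scrublet in scanpy 1.11.5, by its automatic limit in WT replicates 1 and 3. In the other 3 libraries that limit marked under 0.5%, so the top scores were removed up to 0.8% per 1000 barcodes. No doublet removal by the authors is stated. Classes were gated on fixed marker lists that hold no semaphorin, plexin or neuropilin. A cell had to express 2 to 5 markers of 1 class. Of the kept cells, 6849 met no gate, 415 met more than 1, and 40 choroid plexus and 52 erythroid cells were too few to use, and all of these were left out.

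Sums of the counts over the cells of a class, 1 per library, were fitted in edgeR 4.0.16 (quasi-likelihood, TMM factors, filterByExpr) in R 4.3.3, with Benjamini-Hochberg adjustment over all features tested. Class contrasts had the library as a block and needed 20 cells in every library. Genotype fits used 2 KO and 3 WT libraries, with no covariate. The library of 2 pooled pups was the replicate, and cells were not. The scripts were tested on simulated counts. Alternatives were DESeq2 1.42.0, RLE size factors, a 5% mitochondrial limit, no filter on low counts, doublets kept, stricter gates, a covariate for male pups, a replicate block and each library left out. The fit over 16 classes and the split of inhibitory neurons were added after the data had been seen.

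The semaphorin, plexin and neuropilin set, the marker lists and the list of pathway genes were chosen with earlier results of these data known. Values in every library are given for members that passed a class contrast or led their role in a class. For genotype, Trem2 and the 3 members with the smallest p in each class are named, and up to 4 pathway genes per comparison by p. Positions are from GENCODE M21 on mm10, which matched all 34 symbols, and promoters are from RefSeq on GRCm38.p6. The interval and the limit of 3 UMIs for a count of 0 cover counting error only.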

Additional observations from a re-analysis of the deposited data

How the results depend on the processing

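Of 2716 comparisons of a called member in a class with the alternatives, 2509 kept their call and 207 lost it, and none changed sign. Between neighbouring classes 921 of 963 kept it. With a mitochondrial limit of 5%, which left 10 classes in the fit, the members called higher numbered 10 in CA3, 3 in Cajal-Retzius cells, 4 in astrocytes, 4 in inhibitory neurons, 7 in intermediate progenitors and 1 in radial glia. The astrocyte and radial glia pair then had 4 calls either way. With doublets kept, 4 members were called higher in Cajal-Retzius cells, 4 in inhibitory neurons and 2 in radial glia. Stricter gates, with 11 classes in the fit, gave 1 in radial glia. Receptor-to-ligand ratios under these gates were 2.66 in CA1, 2.78 in CA3, 1.61 in dentate granule cells and 0.66 in astrocytes. The cause of these changes was not tested. CA1, dentate granule cells and microglia were not in the fit with stricter gates, having 19, 6 and 19 cells in their smallest library. Their calls were therefore not retested there, and the dentate ratio of 1.61 rests on 6 to 37 cells per library. Leaving out any 1 library changed no count of calls in the 14 class contrasts, the 8 neighbouring pairs or the genotype tests by more than 1.5 times, with 19 to 21 higher in dentate granule cells and 12 to 15 in CA1. The 1 higher and 1 lower call of MGE minus CGE varied more: without KO replicate 2 Sema6c was lost and Sema5a and Sema6a were called lower, without KO replicate 3 Sema6a was called in place of Sema5a, and without WT replicate 1 or 3 Sema3c was called lower beside Sema5a. The 16-class fit was not rerun without single libraries.

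Of 515 comparisons of a named genotype value with the alternatives, 505 kept direction and side of the threshold. With no filter on low counts, 1 member passed by genotype in CA1 (Sema3c, 0.51, adjusted p = 0.0281 by edgeR) and 1 in other excitatory neurons (Sema5a, 0.54, adjusted p = 0.025). Values changed sign for Plxna2 in Cajal-Retzius cells with doublets kept (0.0646), and without KO replicate 3 for Plxna4 in endothelial cells (-1.47 to 0.10 over the fits without 1 library), Nrp2 in microglia (-0.0555 to 0.99) and Plxnb2 in microglia (-0.48 to 0.00767), and for Nrp1 in radial glia with stricter gates (0.16). No label ties a library number to a shared litter or day, and with only 2 pairs the numbers were not taken as pairing the libraries. The number of male pups in the descriptions was the same within each of these pairs. In the fits with a covariate for male pups, no member passed by genotype in any of the 14 classes. Deviations of same-numbered libraries from their group means over all cells correlated at 0.497 for number 2 and 0.538 for number 3. Within single classes the correlations were lower, from 0.118 in endothelial to 0.484 in ependymal cells for number 2. For number 3 they ran from 0.049 to 0.396 in the same 2 classes. With 2 KO libraries, the deviation of 1 is the negative of the other, so the values for the 2 numbers are not independent. With the replicate block, Nrp2 (0.37, adjusted p = 0.0183 by edgeR) and Sema5b (0.99, adjusted p = 0.00192) passed in dentate granule cells, 2 calls, and Sema3c (-0.74, adjusted p = 0.0244) in ependymal cells, 1 call. The level of Nrp2 was higher in the library numbered 3 than in that numbered 2 within both genotypes in 11 of 14 classes, the most of the 34 members. For Sema5b this held in 4 classes and the reverse in 3. For Sema6c and Plxnb2 it held in 0 classes and the reverse in 10.

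KO libraries were 2, so 1 library carries much of each genotype value. Microglia, with 36 to 97 cells per library, allowed 9 members to be tested.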
